A study of Homo sapiens with 6 samples.

Results

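The mRNAs of 10 factors that cut the ends of messenger RNAs and add their poly(A) tails were followed in HCT-116 cells, a human cell line from a colorectal carcinoma. The genes were CPSF1, CPSF2, CPSF3, CPSF4, CPSF6, NUDT21, WDR33, FIP1L1, SYMPK and CSTF2. They were taken by symbol from a table of 27918 genes and loci, in which each symbol was found once. The cells were transfected with an antisense LNA GapmeR against the long noncoding RNA CASC9 (GapC9) or with a control GapmeR (GapNC), and 3 libraries of poly(A) RNA were sequenced for each group. A GapmeR pairs with its target RNA and recruits RNase H to cut it. Both groups share the cell line and the transfection, and nothing in the labels says whether the 3 libraries of a group came from separate cultures, so that p-values measure only the spread between these libraries.

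Most human mRNAs end where the nascent transcript is cut and a poly(A) tail is added, usually shortly after the hexamer AAUAAA. A polyadenylation specificity module (CPSF1, CPSF4, WDR33 and FIP1L1) recognizes the hexamer and brings in the poly(A) polymerase, and a cleavage module (CPSF2, CPSF3 and SYMPK) cuts the RNA, with CPSF3 as the endonuclease. The cleavage stimulation factor CstF binds downstream GU-rich sequence through CSTF2, and the cleavage factor CFIm binds UGUA elements through NUDT21 and CPSF6, which together influence which of several poly(A) sites is used. The comparison asked whether the mRNAs of this machinery, of which CPSF3 was studied as a protein partner of CASC9, differed between the libraries of the 2 groups.

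The hexamer that these proteins read was also looked for at the annotated 3′ ends of their own mRNAs. Of the 10 factors 8 held AATAAA and 1 (CPSF4) the variant ATTAAA, while CPSF1 held neither, and 3 examples are shown because results on their genes follow. Each is a stretch of 30 bases in the annotated 3′ UTR (GENCODE release 29, GRCh38), written 5′ to 3′ as DNA, with the hexamer in capitals.
CPSF3, chr2:9473070-9473099, plus strand: ctaaAATAAAatgcattcgtttctctgggg
CPSF4, chr7:99457342-99457371, plus strand: ttttatgaaatggATTAAAgcttgtttttt
CSTF3, chr11:33084584-33084613, minus strand: tcctttaaaaAATAAAaggattcagaaaca
Only the sense strand of the last 50 bases of 1 principal transcript a gene was searched. Among 19566 protein-coding genes, 59.74% held AATAAA in this window and 13.37% held ATTAAA without it. A match is a description of the annotated end and was not set against any measured cleavage.

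The values were FPKM, fragments scaled by transcript length and by the mapped reads of a library, as the authors deposited them, without read counts. Depth was read from the step between low values and came to 22.8 to 24.4 M (mega) fragments a library if that step is 1 fragment. The lowest locus, in which FIP1L1 is joined with PDGFRA and AC058822.1, would then rest on 163 to 218 fragments at the FIP1L1 transcript length. These cannot be assigned to FIP1L1 alone. The other 9 factors would rest on more, so that counting error alone would be at most 7.83% of any of these values. Of 8 colorectal epithelial markers, 6 had a mean of at least 1 FPKM, whereas KRT20 and VIL1 lay between 0 and 0.302 FPKM. The 3 endothelial markers summed to at most 0.083 FPKM in any library, and of 5 leukocyte markers only CD68 (49.8 to 55.7 FPKM) exceeded 0.03 FPKM. Of 5 fibroblast markers 4 were in the table, with sums of 7.33 to 8.94 FPKM in GapNC and 8.01 to 9.26 in GapC9. The sums include COL3A1 (3.025 to 4.134 FPKM), COL1A1 (1.058 to 1.542 FPKM) and the locus that PDGFRA shares with FIP1L1 (3.22 to 4.09 FPKM). CASC9 was listed at 0, 0.0108 and 0 FPKM in GapNC and at 0.0528, 0.107 and 0 FPKM in GapC9 (replicates 1, 2 and 3). These values correspond to 0 to 3 fragments a library, and an exact permutation test between the groups, two-sided, gave p = 0.4 (0.1 being the smallest it allows). At this depth CASC9 cannot check the labels in either direction, and each direction given here is that of the libraries so labelled.

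Mean mRNA levels of the 10 factors in GapC9 were 0.728 to 1.18 times those in GapNC. CPSF1 and NUDT21 had the lowest fitted changes and FIP1L1 the highest. None of the 10 passed an adjusted p of 0.05 (limma on log2(FPKM + 0.1), Benjamini-Hochberg over 16028 genes). Among all genes tested, 1.89% were called higher and 5.1% lower at that threshold. At an unadjusted p under 0.05, WDR33 alone was lower and none was higher, where 16.8% and 9.09% of all genes were called. This count was 4 with no filter (3 lower and 1 higher), where 16.6% of all genes were called in either direction. After GC correction it was also 4 (3 lower and 1 higher), where 30.5% of all genes were called. With median scaling FIP1L1 alone passed, as higher, where 25.9% of all genes were called. None of the 10 reached a ratio of means of at least 2 or at most 0.5 with an unadjusted p under 0.05, thresholds that 2.1% of all genes passed upward and 4.32% downward. The median log2 fold change was −0.26 over the 10 factors, with 6 below 0 and 4 above, and −0.08 over all genes tested. In bulk RNA, fewer cells that express a gene and less RNA per cell cannot be told apart.

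In 5 of the 10 genes the 3 GapC9 libraries did not overlap the 3 GapNC libraries. CPSF1, CPSF3, CPSF4 and WDR33 were below their controls in every library, and the FIP1L1 locus was above. Of all genes tested, 21.6% were without overlap in the lower and 12.6% in the higher direction. Median scaling divided each library by its median ratio to the gene means. The count was then 3 (WDR33 and CPSF1 lower, FIP1L1 higher), beside 34.4% of all genes. Without GapNC replicate 1 it was 8, a fit in which 45.2% of all genes were without overlap, against 34.2% with all libraries.

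**Figure D1:**
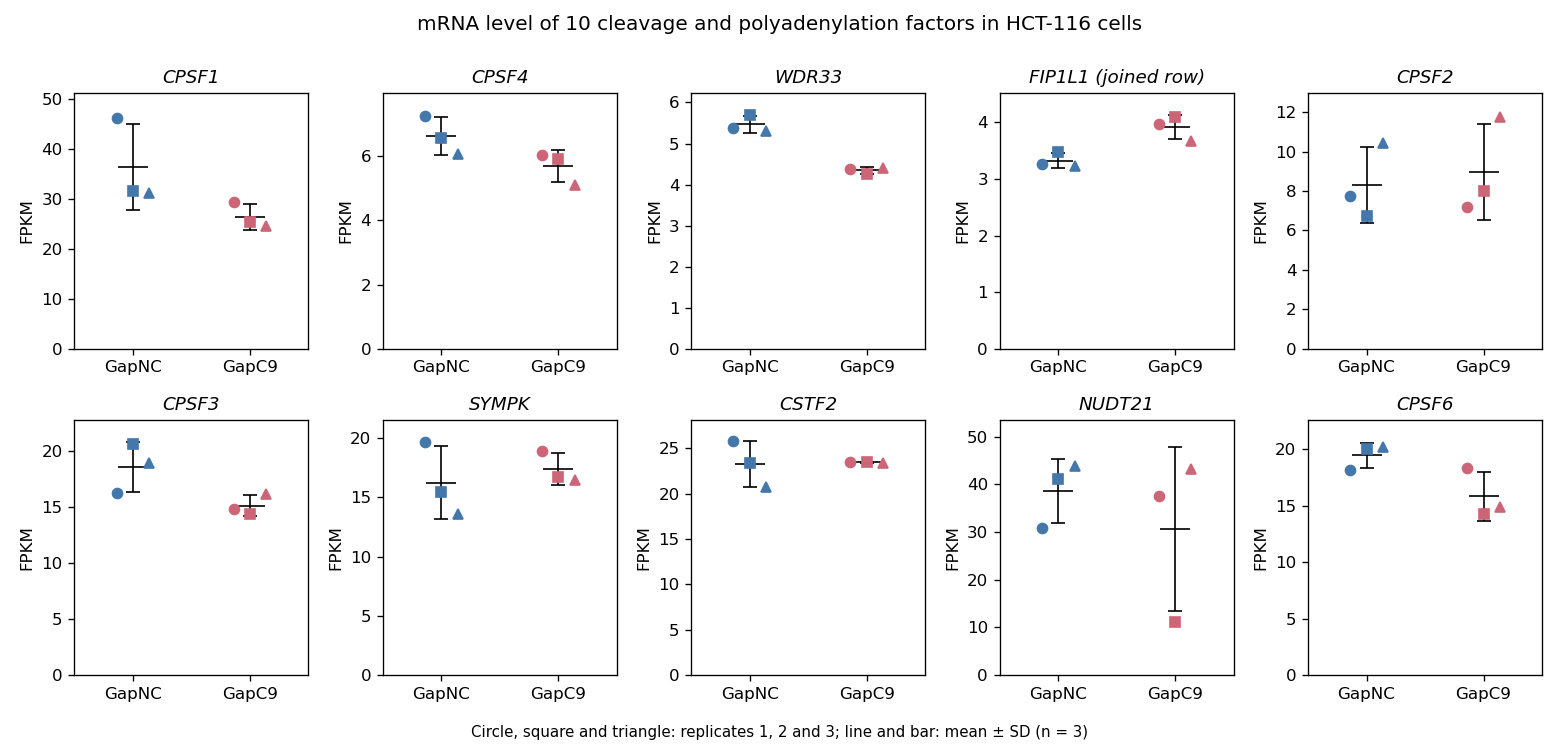
FPKM (y axis, from 0) of the 10 factors in the libraries of GapNC (blue) and GapC9 (red), where the circle, square and triangle are replicates 1, 2 and 3 and the line and bar are the mean ± SD (n = 3). The groups do not overlap in CPSF1, CPSF3, CPSF4, WDR33 and FIP1L1, but they nearly meet in CPSF3 and CPSF4. In NUDT21, a single GapC9 library at 11.1 FPKM stands below the other 5.

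By level, the factors spanned from 3.62 FPKM for the locus that joins FIP1L1 with PDGFRA and AC058822.1 to 34.6 FPKM for NUDT21 (means over 6 libraries). FPKM is corrected for transcript length but not for GC content, which ran from 41.5% to 62.9% over the factors. The order between genes is therefore only approximate. NUDT21 and CPSF1 (31.4 FPKM) were not separable, since NUDT21 was the higher in 4 of 6 libraries. CSTF2 followed at 23.4 FPKM, above CPSF6 in all 6 libraries and without overlap of their ranges. CPSF6 (17.6), CPSF3 (16.9) and SYMPK (16.8 FPKM) overlapped throughout, with CPSF6 above CPSF3 in 3 libraries and CPSF3 above SYMPK in 2. CPSF2 (8.63), CPSF4 (6.16), WDR33 (4.90) and the FIP1L1 locus (3.62 FPKM) came last, each above the next in all 6 libraries. The endonuclease CPSF3 thus stood in the middle of the machinery, at a level that its partner SYMPK could not be told from.

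Within the specificity module, WDR33, which contacts the hexamer directly, gave the smallest spread and the smallest p. It was measured at 5.39, 5.69 and 5.31 FPKM in GapNC and at 4.38, 4.25 and 4.40 FPKM in GapC9. All 3 GapC9 libraries lay below all 3 controls, and the gap between the groups was wider than the range within either. The mean fell from 5.47 ± 0.200 to 4.34 ± 0.0821 FPKM (SD, n = 3). The log2 fold change was −0.32 (standard error 0.10, 95% confidence interval −0.56 to −0.09), with a limma p of 0.0146 before and 0.101 after adjustment. WDR33 (ENSG00000136709) is encoded on the minus strand (chr2:127701022-127811187, GRCh38 as for all positions here) and shares 25.6% of its annotated exonic bases with other genes. Use of strand in the counting is not given in the sources used here, so reads from such overlaps cannot be assigned.

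CPSF1 (ENSG00000071894), the large scaffold subunit of the same module, was measured at 46.3, 31.5 and 31.2 FPKM in GapNC and at 29.4, 25.5 and 24.5 FPKM in GapC9. The groups did not overlap, but replicate 1 of GapNC stood far above the other 5 libraries. The log2 fold change of −0.44 (95% confidence interval −0.88 to 0.01) had an adjusted p of 0.197 and was −0.25 without that library. CPSF4 (ENSG00000160917, chr7:99438922-99457371, plus strand), a zinc finger protein that binds the hexamer beside WDR33, was measured at 7.27, 6.57 and 6.06 FPKM in GapNC and at 6.03, 5.91 and 5.11 FPKM in GapC9. The lowest control and the highest GapC9 library were nearly equal. Its log2 fold change was −0.22 (−0.52 to 0.08, adjusted p = 0.319).

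FIP1L1 (ENSG00000145216, chr4:53377643-53460861, plus strand), the subunit that tethers the poly(A) polymerase, is joined in the table with PDGFRA and AC058822.1 into 1 locus, so its values cannot be assigned to FIP1L1 alone. The locus was measured at 3.26, 3.47 and 3.22 FPKM in GapNC and at 3.98, 4.09 and 3.67 FPKM in GapC9. Every GapC9 library was above every control, which sets this locus against the other 3 genes of the module. The log2 fold change was 0.23 (−0.03 to 0.49, adjusted p = 0.229).

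In the cleavage module, CPSF3 (ENSG00000119203, chr2:9423568-9473101, plus strand), which shares no annotated exonic bases with another gene, was slightly lower in GapC9. It was measured at 16.3, 20.6 and 18.9 FPKM in GapNC and at 14.8, 14.4 and 16.2 FPKM in GapC9. The highest GapC9 library lay just below the lowest control, so that the groups did not overlap but nearly met. Means were 18.6 ± 2.20 and 15.1 ± 0.925 FPKM (SD, n = 3), a ratio of 0.814. The log2 fold change was −0.29 (standard error 0.12, interval −0.59 to 0.01), with a limma p of 0.0534 before and 0.197 after adjustment. A fall to below 0.5 of the control level lies outside this interval.

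The other subunits of this module showed no such separation of the groups. CPSF2 (ENSG00000165934, chr14:92121937-92172145, plus strand), the catalytically inactive homolog of CPSF3, was measured at 7.72, 6.72 and 10.4 FPKM in GapNC and at 7.20, 7.98 and 11.7 FPKM in GapC9. Replicate 3 was the highest in both groups, and the groups overlapped almost fully. SYMPK (ENSG00000125755, chr19:45815410-45863290, minus strand), the scaffold that links the module to other factors, was measured at 19.6, 15.5 and 13.6 FPKM in GapNC and at 18.9, 16.7 and 16.4 FPKM in GapC9. Its GapC9 values fell within the range of the controls. Log2 fold changes were 0.10 for CPSF2 (−0.50 to 0.70, adjusted p = 0.827) and 0.11 for SYMPK (−0.27 to 0.50, adjusted p = 0.694).

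CSTF2 (ENSG00000101811, chrX:100820359-100840932, plus strand), the RNA-binding subunit of CstF, was level between the groups. GapNC libraries held 25.8, 23.4 and 20.7 FPKM and GapC9 libraries 23.5, 23.5 and 23.4 FPKM. The 3 GapC9 values all fell inside the range of the controls, and the log2 fold change of 0.02 had a 95% confidence interval of −0.25 to 0.28 (adjusted p = 0.944).

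Of the CFIm subunits, NUDT21 (ENSG00000167005, chr16:56429133-56452199, minus strand), which binds the UGUA element, was decided by 1 library. It was measured at 30.9, 41.0 and 43.7 FPKM in GapNC and at 37.6, 11.1 and 43.2 FPKM in GapC9. Replicate 2 of GapC9 lay far below the other 5 libraries, and the remaining GapC9 libraries fell within the controls. The log2 fold change was −0.54 (−1.82 to 0.75, adjusted p = 0.560) and became 0.08 without that library. OGFOD1, the neighboring gene on the other strand, was at 8.20 FPKM in the same library, within the range of the other 5. CPSF6 (ENSG00000111605, chr12:69239537-69274358, plus strand), the partner of NUDT21 and the subunit with an RS-like domain, was measured at 18.2, 20.0 and 20.2 FPKM in GapNC and at 18.3, 14.3 and 14.9 FPKM in GapC9. GapC9 replicates 2 and 3 lay below all controls and replicate 1 among them, which gave a log2 fold change of −0.30 (−0.61 to 0.01, adjusted p = 0.199).

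The libraries differed in how FPKM related to the GC content of genes, and the factors divided along the same property. For each library, the deviation of every gene from its own mean over the libraries was set against the GC content of its transcripts (10117 genes, mean FPKM of 1 or more). Spearman's rho, a description across genes, was 0.616, 0.00964 and −0.104 in GapNC replicates 1, 2 and 3. In GapC9 replicates 1, 2 and 3 it was 0.029, −0.336 and −0.376. Between GC content and the log2 fold change of the same genes, rho was −0.33. All 4 factors with transcripts over 50% GC (CPSF1 at 62.9%, SYMPK at 58.9%, CPSF4 at 56.9% and CSTF2 at 51.6%) had their highest value in GapNC replicate 1. None of the other 6, at 41.5% to 45.3% GC, did.

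After a lowess correction for GC content in each library, the fold changes of the GC-rich factors moved up and those of the others stayed within 0.10 of their values. CPSF1 went from −0.44 to −0.08 and CPSF4 from −0.22 to −0.01. SYMPK rose from 0.11 to 0.36 and then passed the threshold (limma adjusted p = 0.0186, 0.0186 to 0.983 over its 16 alternatives). WDR33 stayed at −0.34 and passed as well (adjusted p = 0.0411, 0.0411 to 0.262 over the alternatives), and CPSF3 stayed at −0.31 without passing (adjusted p = 0.0547, 0.0547 to 0.403). The same correction called 1087 genes higher and 1244 lower over the table, against 303 and 817 without it. Whether GC content or the GapmeR accounts for the changes of CPSF1 and CPSF4 was not tested.

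**Figure D2:**
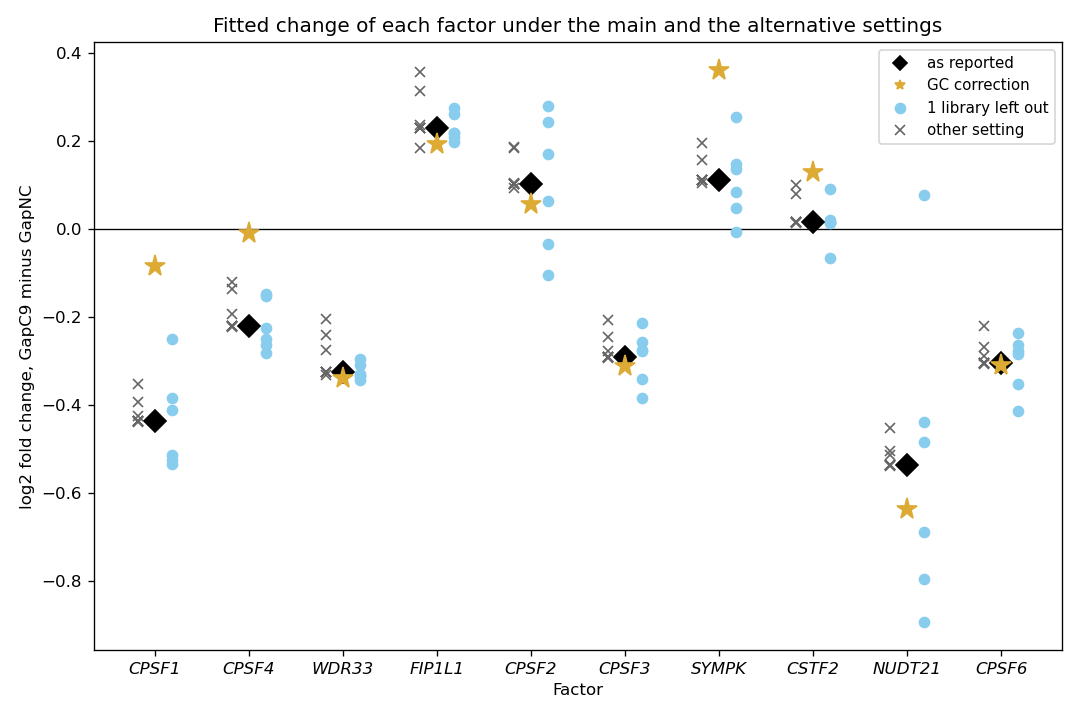
Log2 fold change (y axis) of each factor (x axis) as reported (diamond), after GC correction (star), with 1 library left out (circles) and under the other settings (crosses). WDR33, CPSF3, CPSF6, FIP1L1, CPSF1 and CPSF4 keep their sign in all fits shown, though CPSF1 and CPSF4 approach 0 after GC correction. NUDT21 is above 0 in 1 fit.

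Larger fitted changes were found among other genes of 3′ end processing. Of 58 such genes on 7 lists 56 could be tested, and 3 were higher (CSTF3, RBBP6 and PAPOLG) and 3 lower (PCF11, NPAT and RPRD1A) at a limma adjusted p under 0.05, against the 1.89% and 5.1% of all genes. Their median log2 fold change was 0.08, with 32 above and 24 below 0. Before adjustment, 9 were higher and 7 lower at a p under 0.05, beside 9.09% and 16.8% of all genes. The groups did not overlap in 14 genes upward and 10 downward, beside 12.6% and 21.6%. These lists were chosen with earlier results of these data known, and no test of a list was made.

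CSTF3, the subunit of CstF that bridges CSTF1 and CSTF2, was measured at 5.20, 6.59 and 5.39 FPKM in GapNC and at 10.7, 11.8 and 13.2 FPKM in GapC9. Every GapC9 library was clearly above every control. The mean rose 2.08-fold, a log2 fold change of 1.04 (standard error 0.14, adjusted p = 0.0216), and CSTF3 was the only one of the 56 genes past the ratio of 2 with an unadjusted p under 0.05. CSTF3 (ENSG00000176102, chromosome 11 from 33077188 to 33162371, minus strand) shares 14.5% of its exonic bases with other genes. On the other strand, TCP11L1 was at 1.81 ± 0.159 FPKM in GapNC and 1.68 ± 0.151 in GapC9 (SD, n = 3), and LINC00294 was listed at 0 in 4 libraries and at 2.94 and 2.26 FPKM in GapC9 replicates 2 and 3. The part of these overlaps in the values of CSTF3 was not tested.

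RBBP6, a ubiquitin ligase that activates cleavage by CPSF3, was measured at 7.00, 8.80 and 8.28 FPKM in GapNC and at 13.95, 16.0 and 15.5 FPKM in GapC9. The groups were far apart, with a ratio of means of 1.88 and a log2 fold change of 0.91 (standard error 0.13, adjusted p = 0.0231). PAPOLG, a nuclear poly(A) polymerase, was measured at 1.54, 2.15 and 1.79 FPKM in GapNC and at 3.58, 2.87 and 3.14 FPKM in GapC9. Its GapC9 values were all above the controls, with a log2 fold change of 0.78 (standard error 0.16, adjusted p = 0.0473).

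PCF11, the subunit of the cleavage factor CFIIm that binds the tail of RNA polymerase II and takes part in termination, was measured at 4.47, 4.78 and 5.57 FPKM in GapNC and at 2.95, 2.75 and 2.81 FPKM in GapC9. All GapC9 libraries lay below the controls by more than the range of either group. The ratio of means was 0.574 and the log2 fold change −0.78 (standard error 0.12, adjusted p = 0.0291). Its annotated exons overlap those of other genes over 18.9% of their bases.

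NPAT, an activator of histone gene transcription, fell from 2.58 ± 0.374 to 1.45 ± 0.0648 FPKM (SD, n = 3). RPRD1A, a protein that binds the tail of RNA polymerase II, fell from 8.99 ± 0.703 to 5.37 ± 0.318 FPKM (SD, n = 3). Log2 fold changes were −0.78 and −0.73, and limma adjusted p was 0.0377 and 0.0269.

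**Figure D3:**
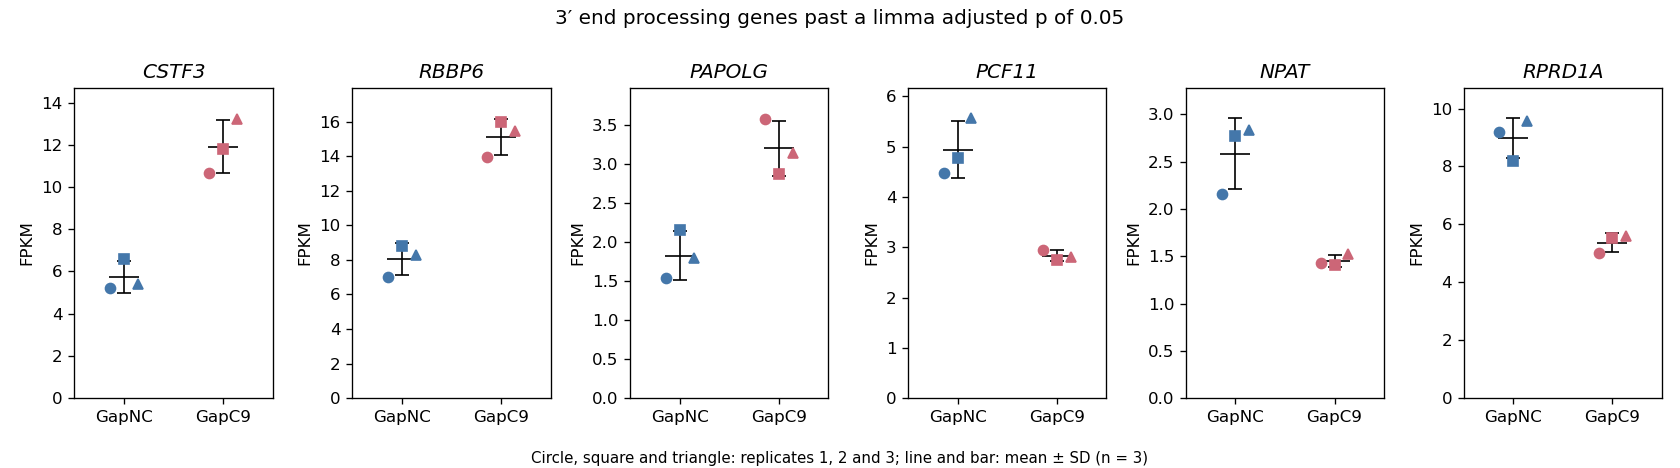
FPKM (y axis, from 0) of the 6 other 3′ end processing genes past a limma adjusted p of 0.05, with replicates 1, 2 and 3 as circle, square and triangle and the mean ± SD (n = 3) as line and bar. The 3 GapC9 libraries (red) are all above the controls (blue) in CSTF3, RBBP6 and PAPOLG and all below them in PCF11, NPAT and RPRD1A.

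Each of the 6 calls was lost in some alternatives. CSTF3, RBBP6 and RPRD1A were past the adjusted threshold in 10 of 16, PCF11 in 9, NPAT in 7 and PAPOLG in 5. PAPOLG was lost with a pseudocount of 1, with no filter, after GC correction and with no variance trend (adjusted p of 0.0503, 0.0808, 0.0502 and 0.0562). NPAT was lost with no filter and with median and quantile scaling (0.0663, 0.0612 and 0.0748), and PCF11 with quantile scaling (0.0521). Without GapNC replicate 1, 5 of the 56 genes were called, and PAPOLG was lost. Without any 1 of the other 5 libraries limma called none at an adjusted p under 0.05, while 12 to 17 were under an unadjusted p of 0.05, as were 19.3% to 24.7% of all genes. Calls over the whole table fell with them, to 16 to 38 higher and 16 to 84 lower. The fold changes themselves kept their direction in every fit, at 0.97 to 1.15 for CSTF3, 0.82 to 0.98 for RBBP6, 0.67 to 0.90 for PAPOLG and −0.84 to −0.69 for PCF11 with 1 library left out.

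No other subunit of CstF, CFIm or CFIIm passed the threshold. The log2 fold change was −0.07 for CSTF1, 0.16 for CPSF7 (a partner of NUDT21 that can replace CPSF6) and 0.41 for CLP1, the RNA kinase of CFIIm, whose locus is joined with AP000662.2. CSTF2T, a paralog of CSTF2, was listed at 7.30 and 5.57 FPKM in replicate 2 of GapNC and GapC9 and at 0 in the other 4 libraries, so no fold change is given.

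Among the polymerases and poly(A) binding proteins, the main nuclear poly(A) polymerase PAPOLA had a log2 fold change of 0.08 (adjusted p = 0.833). PABPC1, the chief cytoplasmic poly(A) binding protein, was at 364, 425 and 432 FPKM in GapNC and at 475, 513 and 522 FPKM in GapC9. These groups did not overlap, with a log2 fold change of 0.31 and a limma p of 0.0176 before and 0.111 after adjustment. Its paralog PABPC4 was at 0.09, and nuclear PABPN1, joined with BCL2L2, at −0.40 (adjusted p of 0.733 and 0.313). TUT1, a uridylyltransferase that also adds poly(A), is joined with the abundant EEF1G (159.7 and 182.4 FPKM on average), so its log2 fold change of 0.19 (adjusted p = 0.331) cannot be assigned to it. PAPOLB, the testis polymerase, did not exceed 0.0204 FPKM in any library.

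Of the associated factors, the phosphatase subunits PPP1CA and PPP1CB (joined with SPDYA) had log2 fold changes of −0.16 and 0.70, and the phosphatase SSU72 had 0.17. None passed the threshold (adjusted p of 0.503, 0.428 and 0.644), and PPP1CB was wide because GapNC replicate 1 was at 6.32 FPKM and the other 5 libraries at 19.3 to 27.0. CPSF4L, a homolog of CPSF4, was at most 0.0288 FPKM.

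**Figure D4:**
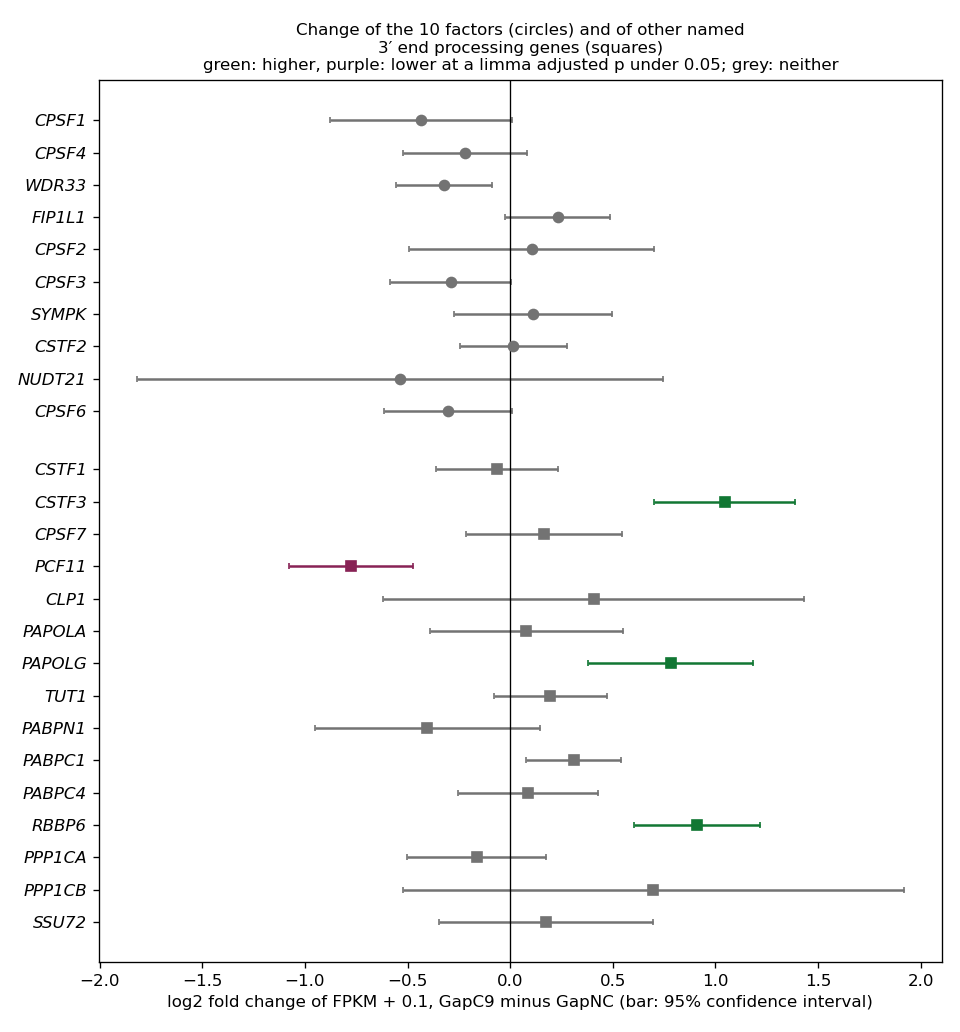
Log2 fold change (x axis, GapC9 minus GapNC, with 95% confidence intervals) of the 10 factors (circles) and of the other tested subunits, polymerases, tail-binding proteins and associated factors (squares), in green or purple where the limma adjusted p was under 0.05. All 10 factors are grey, while CSTF3, PAPOLG and RBBP6 are to the right of 0 and PCF11 to the left.

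In the remaining lists, 4 of 14 Integrator subunits were under an unadjusted p of 0.05 (1 higher and 3 lower) and none was past the adjusted threshold. That is 28.6% of them, near the 25.9% of all genes. Among 13 genes of poly(A) site choice, 3 were higher and 1 lower at the unadjusted threshold (30.8%, beside the same 25.9%) and none past the adjusted one. Histone pre-mRNA processing (6 genes) and termination (7 genes) each held 1 gene past the adjusted threshold, the NPAT and RPRD1A given above.

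A ratio between subunits within a library does not depend on how libraries are scaled. Pairs of subunits or paralogs were compared, and 7 could be formed. The pair of CSTF2 and its paralog CSTF2T was left out because CSTF2T was listed at 0. Of these, 2 differed without overlap between the groups. With 3 libraries against 3, the exact permutation test cannot go below p = 0.1, and no pair could pass a threshold of 0.05.

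The CSTF2 to CSTF3 ratio was 4.95, 3.54 and 3.85 in GapNC and 2.20, 1.99 and 1.77 in GapC9. CSTF2 mRNA was thus in excess of CSTF3 in every library, by less in GapC9, a log2 difference of −1.04 (exact two-sided permutation p = 0.1, adjusted p = 0.35 over 7 pairs). The FIP1L1 to WDR33 ratio was 0.606, 0.610 and 0.607 in GapNC and 0.908, 0.963 and 0.834 in GapC9. It hardly varied among the controls and was higher in every GapC9 library, a log2 difference of 0.57 (exact two-sided permutation p = 0.1, adjusted p = 0.35), although the FIP1L1 values include the joined genes.

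As deposited, the ratios of the endonuclease to its partners overlapped between the groups. The CPSF3 to CPSF2 ratio was 2.10, 3.07 and 1.82 in GapNC and 2.06, 1.80 and 1.38 in GapC9, and the CPSF3 to SYMPK ratio 0.829, 1.33 and 1.39 against 0.783, 0.860 and 0.983. The exact permutation p was 0.2 and 0.3 (adjusted p = 0.35 for each). Log2 differences were −0.40 for each pair and 0.21 for CPSF4 to CPSF1, 0.23 for CPSF6 to NUDT21 and −0.47 for CPSF6 to CPSF7, and in these 3 the groups also overlapped (exact permutation p of 0.2, 0.9 and 0.3, adjusted p of 0.35, 0.9 and 0.35). After GC correction 3 pairs were without overlap. These were CSTF2 to CSTF3 (−0.87), FIP1L1 to WDR33 (0.54) and CPSF3 to SYMPK, whose log2 difference went from −0.40 to −0.68. The other differences were then −0.37 for CPSF3 to CPSF2, 0.07 for CPSF4 to CPSF1, 0.33 for CPSF6 to NUDT21 and −0.61 for CPSF6 to CPSF7.

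**Figure D5:**
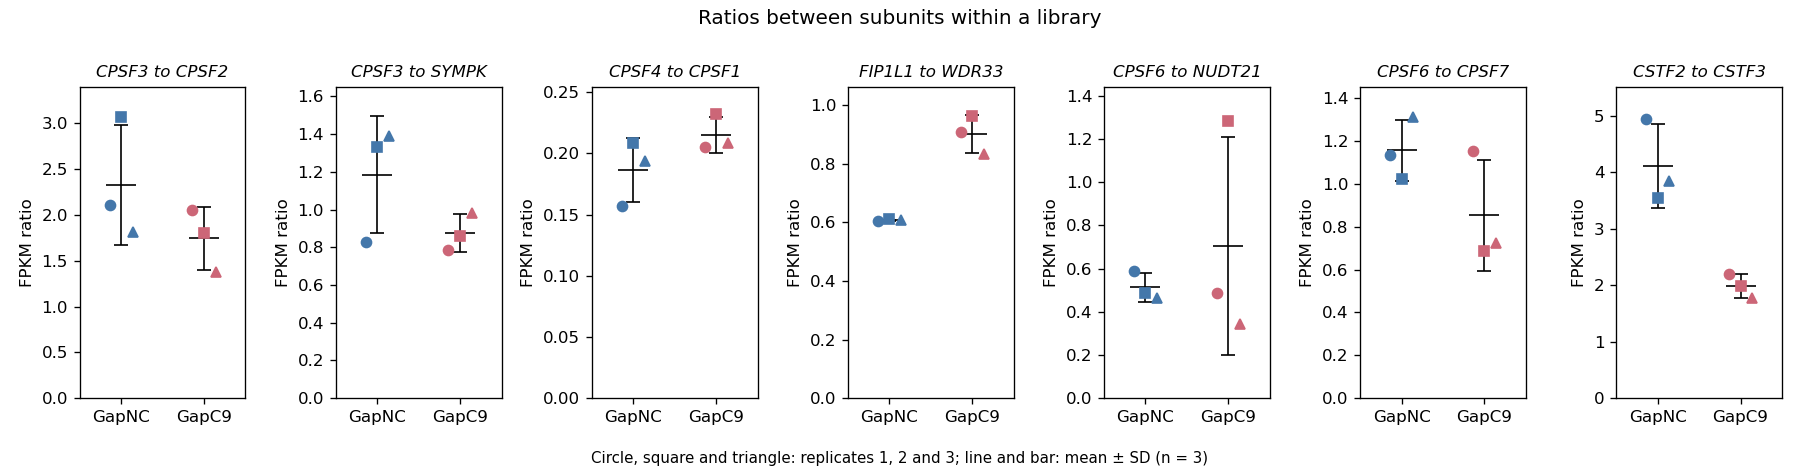
Ratio of FPKM (y axis, from 0) between 7 pairs of subunits in each library, with replicates 1, 2 and 3 as circle, square and triangle and the mean ± SD (n = 3) as line and bar. GapNC (blue) and GapC9 (red) are apart in FIP1L1 to WDR33 and in CSTF2 to CSTF3 and overlap in the other 5.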

How the data were processed

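The 6 poly(A) RNA libraries were grouped by the transfection named in their labels. The authors mapped reads to the human genome with HISAT and computed the deposited FPKM with StringTie. The submitters' processing notes name Bowtie 0.12.2, HISAT2 2.0 and StringTie 1.3.0, with no role, and list the mouse build mm8 for these human samples, so the build behind the FPKM is not clear. The authors used edgeR, which was not rerun because no counts are in the table.

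The FPKM were fitted with limma 3.58.1 (trend, R 4.3.3) as log2(FPKM + 0.1), unscaled, for the 16028 rows whose mean reached 0.1 FPKM. On this scale the changes of low genes are understated. Figures and tables used Python 3.11.15, and the fit was tested on simulated data. Gene positions, GC content and sequences came from GENCODE release 29. The table gives no coordinates, and genes were matched by identifier. Alternatives covered pseudocounts (1 and 0.01), filters, median and quantile scaling, GC correction (lowess, span 0.3), variance options, a replicate block and each library left out.

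Named genes were the 10 factors, all subunits, polymerases, tail-binding and associated factors, CASC9, the 5 genes most like CPSF3, and genes of other lists past the adjusted threshold or the fold and unadjusted p. The members and lists were chosen with earlier results of these data known.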

Additional observations from a re-analysis of the deposited data

How the results depend on the processing

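With 3 libraries a group and no counts, changes as small as those of the 10 factors are near the limit of these data. For 27 named genes under 16 alternatives, 371 of 432 fold changes kept their direction and side of the threshold, 45 lost the call, 3 gained it (WDR33, SYMPK and TUT1 after GC correction) and 13 changed sign, all of uncalled genes. No factor passed the adjusted threshold in any alternative but GC correction, where 2 did. That setting called 14.5% of all genes, against 6.99% as reported. Of the other 56 genes GC correction called 14 (8 higher and 6 lower), and 0 past the fold and unadjusted p. Leaving out 1 library gave 0 to 5 of them by adjusted p (0.2% to 5.05% of all genes) and 0 to 2 by the fold. Factors without overlap numbered 3 after median scaling, 3 after quantile normalization and 5 to 8 with 1 library left out. Of all genes, 34.4%, 33.9% and 40.8% to 45.8% were without overlap in these settings. Pairs of subunits without overlap numbered 2 to 5. Over all genes, adjusted calls were 303 higher and 817 lower as reported, 349 and 567 with median scaling, 347 and 517 with quantile normalization, and 146 and 346 with no filter.

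Signs changed as follows. With 1 library left out, log2 fold changes ran from −0.10 to 0.28 for CPSF2, −0.89 to 0.078 for NUDT21, −0.0067 to 0.26 for SYMPK, −0.0645 to 0.091 for CSTF2, −0.0795 to 0.25 for PAPOLA, −0.0068 to 0.22 for PABPC4 and −0.034 to 0.33 for SSU72. CSTF1 was at 0.018 with median scaling and 0.010 with quantile normalization, and GC correction gave −0.048 for PAPOLA and 0.14 for PPP1CA. The causes were not tested.

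Between deviations from the group means, libraries with the same replicate number had correlations of 0.097, 0.040 and 0.024. Those with different numbers had correlations of −0.093 to 0.058. These values do not settle whether the numbers mark pairs or batches, and the main fit did not pair the libraries. With a replicate block, limma called 0 of the 10 factors and 0 of the other 56 genes by adjusted p (2 and 18 at an unadjusted p under 0.05), and none in the whole table.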

Other observations

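Over the 6 libraries, the genes whose pattern was most like that of CPSF3 (of 5561 genes whose mean reached 5 FPKM) were PUM3, PSMG1, LPCAT3, FAM122B and ZNF217, with Pearson's r of 0.998, 0.994, 0.984, 0.979 and 0.979 on log2(FPKM + 0.1). These values describe 6 libraries in 2 groups and carry no test. PUM3, a nucleolar RNA-binding protein, was measured at 25.2, 30.8 and 28.8 FPKM in GapNC and at 23.2, 22.2 and 24.6 FPKM in GapC9. PSMG1, a chaperone of proteasome assembly, was measured at 15.5, 19.9 and 18.2 FPKM in GapNC and at 14.4, 14.2 and 15.3 FPKM in GapC9. Both held the order seen in CPSF3 among the controls, with replicate 1 the lowest and replicate 2 the highest, and both were lower in every GapC9 library than in every control. The 2 genes were picked for their likeness to CPSF3 over these same libraries, so this shared pattern is no separate observation.

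After GC correction, several genes of the machinery that had not passed before did so, and they were singled out after their values were seen. Of all genes, 14.5% were called in that setting, against 6.99% without the correction. INTS1, INTS7 and INTS9 of the Integrator complex, which cleaves small nuclear RNAs, were lower, with log2 fold changes of −0.38, −0.31 and −0.32 (limma adjusted p of 0.0160, 0.0257 and 0.0292). The rest of the 14 Integrator genes did not pass, and without the correction 5 of the 14 were above 0 and 9 below. LEO1 and PAF1 of the PAF1 complex, which travels with RNA polymerase II, were higher at 0.34 and 0.33 (adjusted p of 0.0275 and 0.0448). CDC73 and CTR9 of the same complex did not pass. CDK12, a kinase of the polymerase tail, was higher at 0.82 (adjusted p = 0.0353), SNRPC of the U1 particle at 0.47 (adjusted p = 0.0175) and THOC5 at 0.35 (adjusted p = 0.0256). THOC5 is joined with NIPSNAP1 into 1 locus, so that change cannot be assigned to THOC5 alone.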
